A study of Mus musculus with 6 samples.

Results

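CpG-dense stretches of the mouse genome that had little DNA methylation in epiblast stem cells (EpiSCs) were examined across 3 kinds of pluripotent stem cells. The genome was divided into tiles of 2 kb. A tile was taken where it lay on chromosomes 1 to 19, held over 80 CpG positions, had at least 40 CpG reads in each of the 6 libraries, and had a mean methylation level under 40% in the 2 EpiSC libraries. A CpG read is 1 sequencing read over 1 CpG, and the level of a tile is the percentage of its CpG reads that were methylated. The rule gave 7910 tiles among 441118 tiles with enough reads on these chromosomes. They were most of the 8741 CpG-dense tiles with enough reads, and the other 831 had EpiSC levels of 40% or more. A further 447 CpG-dense tiles did not reach the read minimum.

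The assay was whole-genome bisulfite sequencing, which leaves methylated cytosine as cytosine and reads unmethylated cytosine as thymine. Advanced pluripotent stem cells (ASCs), embryonic stem cells (ESCs) and EpiSCs were each represented by 2 libraries. According to the methods of the study, ASCs came from blastocyst-derived lines that were moved to ABCL medium (Activin A, BMP4, the Wnt pathway activator CHIR99021 and LIF), ESCs were naive cells in 2i/LIF, and EpiSCs were primed cells like the epiblast after implantation. All 6 libraries carry the strain label 129S2/SvPasCrl and the genotype label wild type. The study describes the lines as female and some of its lines as crosses with reporter males of mixed background, so that a group stands for the lines used and not for a genotype. The cell type label reads embryonic stem cells in every library, and the groups were taken from the sample titles. Methylation alone cannot check these labels against marker genes. Libraries held between 63803799 and 74925271 CpG reads, a mean of 2.96 to 3.46 reads at a listed CpG, and a median of 375 to 528.5 CpG reads in a member tile. By group these medians were 390 and 375 for ASCs, 491 and 459 for ESCs and 528.5 and 514 for EpiSCs. Over all tiles of chromosomes 1 to 19 they were 94 and 93, 98 and 97, and 91 and 81. A level summed over reads weights sites by depth, and the part of this in the gaps between groups was not tested. The 95% Wilson interval of a level of 5%, which covers counting error only, runs from 3.41% to 7.28% with 500 reads and from 1.38% to 16.5% with 40. Conversion of unmethylated cytosine was not measured here, so levels near 1% cannot be told apart from unconverted cytosine.

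CpG islands are stretches rich in CpG that mark the starts of most housekeeping genes and of many developmental regulators in mammals. Elsewhere in the genome CpG is rare, and most CpG sites carry methyl groups placed by DNMT3A and DNMT3B and copied at replication by DNMT1. Island CpG sites are usually free of methylation, and proteins with a CXXC domain, such as KDM2B and CXXC1, bind there. Exceptions are islands on the inactive X chromosome, at imprinted genes and at germline genes, where methylation goes with silencing.

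The 300 bases before 7 transcription starts are printed to show what such DNA looks like, read from the GRCm38 sequence of RefSeq in the direction of transcription, with every CpG in capitals. Pink1, Ttll4 and Rgcc belong to the tiles with the largest gap between ASCs and ESCs. Sox2 and Hoxa5 lie in tiles of the same set that were close to 0% or low in every group. Isl1 and Dazl lie in CpG-dense tiles outside the set, where EpiSCs were methylated.
Pink1, chr4:138326308-138326607, minus strand: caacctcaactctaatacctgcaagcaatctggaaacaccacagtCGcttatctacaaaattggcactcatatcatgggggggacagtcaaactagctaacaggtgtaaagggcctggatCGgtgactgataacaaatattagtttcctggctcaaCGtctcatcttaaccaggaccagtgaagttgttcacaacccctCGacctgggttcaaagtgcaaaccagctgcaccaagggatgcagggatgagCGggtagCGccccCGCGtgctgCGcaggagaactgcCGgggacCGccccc
Ttll4, chr1:74661445-74661744, plus strand: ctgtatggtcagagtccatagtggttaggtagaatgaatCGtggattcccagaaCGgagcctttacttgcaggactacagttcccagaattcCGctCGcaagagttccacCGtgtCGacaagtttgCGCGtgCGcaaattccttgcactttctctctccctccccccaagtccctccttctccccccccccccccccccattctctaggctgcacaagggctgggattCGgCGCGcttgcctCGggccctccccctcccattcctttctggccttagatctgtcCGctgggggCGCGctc
Rgcc, chr14:79301646-79301945, minus strand: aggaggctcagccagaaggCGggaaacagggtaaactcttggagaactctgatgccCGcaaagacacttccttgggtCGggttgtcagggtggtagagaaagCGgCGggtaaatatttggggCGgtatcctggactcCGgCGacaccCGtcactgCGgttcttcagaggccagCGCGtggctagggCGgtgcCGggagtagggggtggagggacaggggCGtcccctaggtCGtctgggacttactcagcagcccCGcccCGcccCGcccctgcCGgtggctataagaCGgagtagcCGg
Sox2, chr3:34650105-34650404, plus strand: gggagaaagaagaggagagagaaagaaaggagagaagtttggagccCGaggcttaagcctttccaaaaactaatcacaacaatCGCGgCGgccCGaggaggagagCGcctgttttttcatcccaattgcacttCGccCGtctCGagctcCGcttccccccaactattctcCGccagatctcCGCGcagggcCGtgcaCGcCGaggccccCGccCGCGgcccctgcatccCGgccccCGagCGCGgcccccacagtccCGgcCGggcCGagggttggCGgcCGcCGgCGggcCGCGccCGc
Hoxa5, chr6:52204588-52204887, minus strand: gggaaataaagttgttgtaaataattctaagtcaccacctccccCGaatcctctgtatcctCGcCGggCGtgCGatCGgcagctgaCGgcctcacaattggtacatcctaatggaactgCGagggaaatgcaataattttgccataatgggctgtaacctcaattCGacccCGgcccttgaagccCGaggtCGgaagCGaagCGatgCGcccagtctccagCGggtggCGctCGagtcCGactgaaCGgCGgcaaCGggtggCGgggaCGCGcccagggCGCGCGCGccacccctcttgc
Isl1, chr13:116309690-116309989, minus strand: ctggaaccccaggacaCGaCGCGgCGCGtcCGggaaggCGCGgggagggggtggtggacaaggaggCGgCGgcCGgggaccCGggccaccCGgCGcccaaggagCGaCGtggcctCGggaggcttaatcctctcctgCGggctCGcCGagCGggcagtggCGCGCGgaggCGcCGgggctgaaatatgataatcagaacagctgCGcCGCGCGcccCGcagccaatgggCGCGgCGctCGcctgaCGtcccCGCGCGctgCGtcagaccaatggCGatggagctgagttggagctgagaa
Dazl, chr17:50293637-50293936, minus strand: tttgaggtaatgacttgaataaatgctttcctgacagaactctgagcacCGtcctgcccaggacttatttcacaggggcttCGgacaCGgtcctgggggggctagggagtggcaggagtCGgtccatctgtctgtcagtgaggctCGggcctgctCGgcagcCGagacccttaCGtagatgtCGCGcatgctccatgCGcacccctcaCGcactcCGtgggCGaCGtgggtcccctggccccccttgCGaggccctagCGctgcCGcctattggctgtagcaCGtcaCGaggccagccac
The Sox2 window held 33 CpG positions and the Isl1 window 41, so CpG number alone did not separate them. In the Sox2 window the levels were 0.885% and 0% for ASCs, 1.01% and 1.05% for ESCs and 0.952% and 1.30% for EpiSCs, where the 0 of 129 reads allows up to 2.33%. In the Isl1 window they were 0% and 1.30% in ASCs, 0.758% and 0% in ESCs, but 53.7% and 45.0% in EpiSCs. The zeros there allow up to 3.09% in ASC replicate 1 and up to 2.86% in ESC replicate 2. The Dazl window, with 20 CpG positions, was at 70.6% and 56.6% for ASCs, 13.9% and 23.4% for ESCs and 94.3% and 96.7% for EpiSCs. Dazl encodes an RNA-binding protein of germ cells, Isl1 a LIM-homeobox factor of motor neurons and heart, and Sox2 a core pluripotency factor.

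The first question was how methylated these tiles were in ASCs and in ESCs, which the rule did not use. The median level over the 7910 tiles was 2.08% and 2.11% for the ASC libraries, 0.976% and 0.971% for the ESC libraries, and 6.14% and 5.80% for the EpiSC libraries. The EpiSC levels chose the tiles and are given as a description. Summed over all CpG reads of the set, the level was 3.40% ± 0.047 for ASCs, 1.498% ± 0.037 for ESCs and 8.28% ± 0.31 for EpiSCs (SD, n = 2 each). The groups did not overlap in this measure. With 2 libraries against 2, no exact permutation p can be below 0.333, so that these sums stand without a test. Over all tiles on chromosomes 1 to 19 the summed level was 57.8% ± 0.28 in ASCs and 18.1% ± 0.30 in ESCs.

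**Figure D1:**
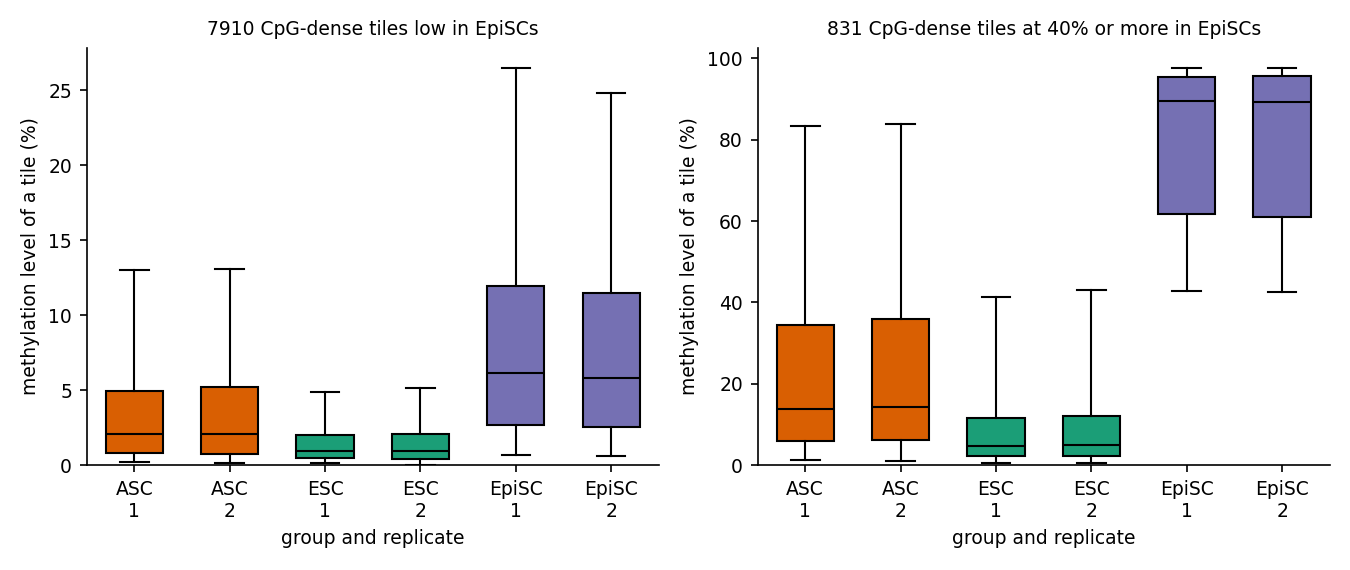
Methylation level of a tile in percent (y axis, different scales) in each library (x axis), for the 7910 CpG-dense tiles low in EpiSCs on the left and the 831 CpG-dense tiles at 40% or more in EpiSCs on the right. Boxes span the 25th to 75th percentiles with the median as a line, and whiskers reach the 5th and 95th percentiles. On the left, ASC medians (2.08% and 2.11%) lie between those of ESCs (0.976% and 0.971%) and EpiSCs (6.14% and 5.80%).

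Most members were nearly free of methylation in the naive cells. In the ESC libraries 95.3% and 94.5% of the tiles were under 5%, against 75.04% and 73.8% for ASCs and 42.8% and 44.9% for EpiSCs. A level of 20% or more was found in 92 and 107 tiles in ASCs and in 1 and 2 tiles in ESCs. In all 6 libraries together, 2745 tiles (34.7%) stayed under 5%, and 234 stayed under 1%. The order ESC, ASC, EpiSC from low to high held for the group means of 5294 tiles (66.9%), and for 98.0% of all tiles tested on chromosomes 1 to 19. Both ASC libraries were above both EpiSC libraries in 435 tiles (5.50%), and in 0.644% of those on chromosomes 1 to 19. Both counts use the EpiSC levels that chose the tiles and are a description only. Across tiles, Pearson's r between replicates was 0.871 for ASCs, 0.644 for ESCs and 0.913 for EpiSCs, and between ASC and ESC libraries 0.616 to 0.635. Tiles are not replicates, and those near 0% in ESCs leave little range for a correlation.

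The tiles were then compared between ASCs and ESCs one at a time. A quasi-binomial logistic model with limma-moderated dispersion was fitted to 445422 tiles on chromosomes 1 to 19 and X, and p-values were adjusted over all of them. With an adjusted p under 0.05 and a difference of at least 20 percentage points, 20 of the 7910 members (0.253%) were higher in ASCs, against 91.1% of all tiles tested. By the same rule 0 members and 0% of all tiles were lower in ASCs. The count of members was also 0 at an unadjusted p under 0.05 in every model used, limma on M values and Fisher's exact test included. This adds no support, because the lowest difference of any member was -10.7 points. Only 1 member had a mean ESC level of 20% or more, so a fall of 20 points was open to no other. CpG-dense tiles at 40% or more in EpiSCs were higher in 232 of 831 cases (27.9%), and tiles with 41 to 80 CpG positions in 18016 of 30003 (60.05%). The median difference was 1.05 percentage points over the members and 46.6 over all tiles of chromosomes 1 to 19. Without ASC replicate 1 the count was 41, of which 16 were among the 20. Without ASC replicate 2 it was 25, with 12 of the 20 among them.

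Because these tiles sit close to 0%, smaller differences were counted as well. At an adjusted p under 0.05 alone, 3394 members (42.9%) were higher in ASCs, against 97.4% of all tiles tested, and 254 (3.21%) were lower, against 0.0658%. The tiles that were higher had a median difference of 3.71 points, and 1183 of them differed by at least 5 points. The tiles that were lower had a median difference of -1.76 points, and 11 of them differed by 5 points or more. Members made up 254 of the 293 tiles that were lower in ASCs among the 445422 tested. Both ASC libraries were above both ESC libraries in 4531 members (57.3%) and below both in 500 (6.32%), beside 98.4% and 0.156% of all tiles tested on chromosomes 1 to 19. Replicates varied more in the members than the shared model allows, with a mean dispersion of 2.13 against 1.47 over all tiles of chromosomes 1 to 19. The CpG-dense tiles at 40% or more in EpiSCs had 2.44, so this was not particular to the members. When the dispersion and the adjustment were taken over CpG-dense tiles alone, 1963 members (24.8%) were higher and 42 (0.531%) lower. Of all CpG-dense tiles in that fit 29.1% were higher and 0.48% lower. The same 20 tiles passed with 20 points, where the difference itself is the same in both fits and only the adjusted p could change. Without ASC replicate 1 or 2 the 254 became 145 or 137.

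The number of CpG positions in a tile went with its level. Tiles with 81 to 100 CpG positions had median levels of 3.49% and 3.59% for ASCs, 1.21% and 1.20% for ESCs and 8.91% and 8.29% for EpiSCs. Tiles with over 160 positions had 0.752% and 0.739% for ASCs, 0.764% and 0.755% for ESCs and 2.63% and 2.35% for EpiSCs. The gap between ASCs and ESCs was thus present in the less dense class and absent from the medians of the densest. In the less dense class 1796 of 3192 tiles (56.3%) were higher in ASCs and 20 lower (0.627%), beside 97.4% and 0.0658% of all tiles tested. In the fit of CpG-dense tiles alone these counts were 1122 and 2. In the densest class 110 of 745 (14.8%) were higher and 110 lower (14.8%), which became 36 (4.83%) and 22 (2.95%) in that fit. Lower tiles numbered 13 in the less dense and 57 in the densest class without ASC replicate 1, and 11 and 62 without ASC replicate 2. Without ESC replicate 2 they numbered 32 and 93, and 72 of the densest class were higher without ASC replicate 2. The lowest read number in a library had a median of 285 CpG reads in the first class and 531 in the second, and its part in these counts was not tested.

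To see where in a tile the methylation lay, each CpG was classed by the number of CpG positions within 100 bp on each side, itself included. The 53750 sites of members with 1 to 4 such positions were at 23.1% and 23.5% for ASCs, 6.77% and 6.82% for ESCs and 56.6% and 56.4% for EpiSCs. Sites with 10 to 14 positions were at 1.81% and 1.85% in ASCs and 1.11% and 1.12% in ESCs. Sites with 20 to 29 positions, 35.5% of all sites in members, were at 0.605% and 0.616% for ASCs, 0.675% and 0.677% for ESCs and 2.44% and 2.41% for EpiSCs. Without members that reach 10000 reads in a library, the EpiSC levels in this class were 1.87% and 1.88%. ASCs were therefore above ESCs at isolated sites and below them at sites with 20 or more positions, in both libraries of each group. At the denser sites the levels were near those that cannot be told apart from unconverted cytosine. The order there may thus not be one of methylation. The sparsest class was 5.88% of the sites and held 44.1% of the methylated reads of ASCs, and the class with 5 to 9 positions was 12.3% of the sites and held 33.2%.

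**Figure D2:**
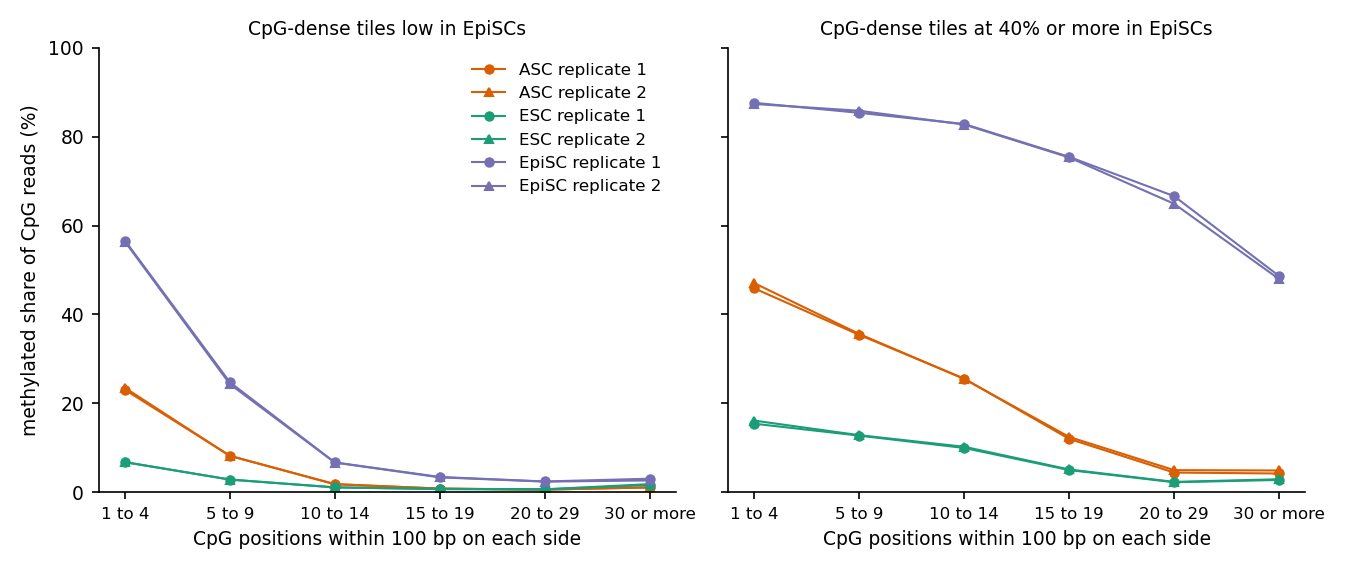
Methylated share of CpG reads in percent (y axis) by the number of CpG positions within 100 bp on each side of a CpG (x axis), with a line for each library, in the members on the left and in CpG-dense tiles at 40% or more in EpiSCs on the right. On the left ASCs fall from 23.1% and 23.5% at the sparsest sites to 0.605% and 0.616% at 20 to 29 positions.

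The tiles called were chosen on this contrast and are described without a test. In the 3394 tiles higher in ASCs the sparsest sites were at 33.2% and 33.8% in ASCs and 8.99% and 9.11% in ESCs. At sites with 20 to 29 positions in those tiles the levels were 0.798% and 0.851% in ASCs and 0.603% and 0.601% in ESCs. ASCs were above ESCs there too, by far less and at levels that cannot be told apart from unconverted cytosine. In the 254 tiles lower in ASCs the sparsest sites were still higher in ASCs, at 5.85% and 5.93% against 2.91% and 3.11% for ESCs. The gap in the other direction was widest at the densest sites, those with 30 or more positions, which were at 0.787% and 0.889% for ASCs, 5.39% and 6.32% for ESCs and 4.97% and 4.41% for EpiSCs. The densest sites of the CpG-dense tiles methylated in EpiSCs were at 48.7% and 48.0% in EpiSCs, against 4.24% and 4.92% in ASCs.

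Members were mostly gene starts. A protein-coding start, with 1 transcript taken per gene in GENCODE M21, lay in 5820 of the 7910 tiles (73.6%), against 26.4% of the CpG-dense tiles methylated in EpiSCs, 18.3% of tiles with 41 to 80 CpG positions and 3.60% of all tiles. A start of any annotated transcript lay in 7031 members (88.9%) and in 47.9% of the CpG-dense tiles methylated in EpiSCs. The middle of the tile was in an exon in 36.0% of members and in 52.0% of the CpG-dense tiles methylated in EpiSCs. Median CpG number was 107 in members and 94 in the CpG-dense tiles methylated in EpiSCs, and the observed over expected CpG ratio was 0.693 and 0.602 at nearly the same GC content (56.9% and 57.6%). The 879 members with no annotated start had median levels of 3.53% and 3.33% for ASCs, 1.46% and 1.65% for ESCs and 6.93% and 6.36% for EpiSCs. The 5820 with a protein-coding start had 1.86% and 1.85%, 0.895% and 0.885%, and 5.96% and 5.59%.

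Around the starts of the 5257 genes whose tile held a single protein-coding start, all groups formed a trough. In the first 250 bp after the start the level was 0.763% ± 0.0020 for ASCs, 0.975% ± 0.037 for ESCs and 1.82% ± 0.061 for EpiSCs (SD, n = 2). Between 750 and 1000 bp after the start it was 3.46% ± 0.076 for ASCs, 1.499% ± 0.037 for ESCs and 13.7% ± 0.46 for EpiSCs. Between 4750 and 5000 bp before the start, outside the tile that holds it, it was 51.7% ± 0.045, 15.3% ± 0.36 and 77.0% ± 1.1. ASCs were below ESCs by a fraction of a point within 250 bp after the start and above them from 250 bp before it outward on the upstream side. Within 250 bp of the start both groups were at levels that cannot be told apart from unconverted cytosine. The flanks were not chosen by the EpiSC rule but adjoin tiles that were.

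**Figure D3:**
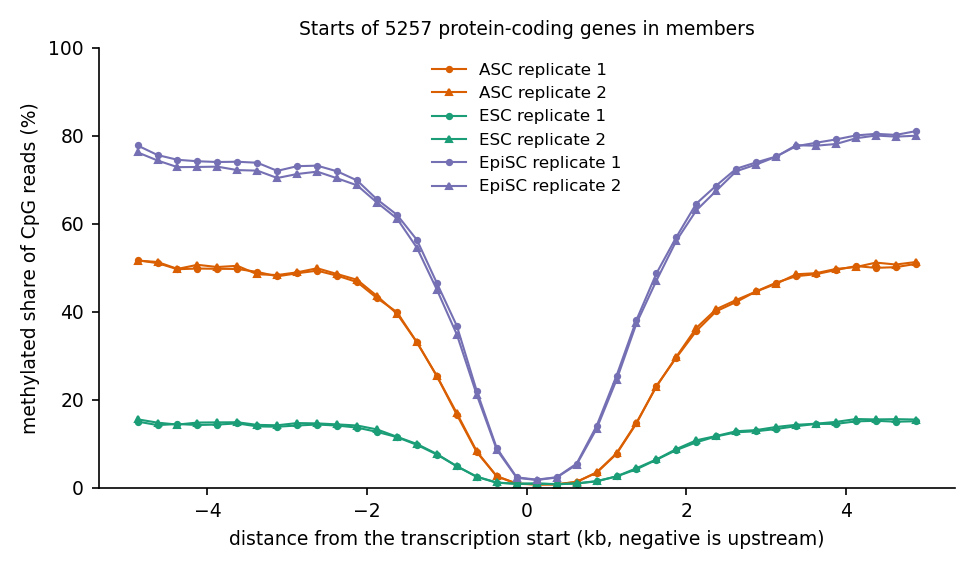
Methylated share of CpG reads in percent (y axis) in bins of 250 bp by distance from the transcription start in kb (x axis, negative is upstream), with a line for each library, over 5257 protein-coding genes. All libraries are lowest near the start, where the first bin after it is at 0.763% for ASCs, 0.975% for ESCs and 1.82% for EpiSCs on average.

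The 20 tiles higher in ASCs by at least 20 points held 81 to 139 CpG positions, 16 of them 100 or fewer. A protein-coding start lay in 13. Their ASC libraries were between 18.9% and 43.2%, their ESC libraries between 1.79% and 15.6%, and every ASC library was above both ESC libraries of its tile. The largest adjusted p among them was 7.68e-09 in the limma-moderated model and 0.00722 in the fit of CpG-dense tiles alone. EpiSC means were above ASC means in 10 of the tiles and below them in the other 10.

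Pink1 encodes a kinase that marks damaged mitochondria for removal. Its tile (chr4:138326001-138328000, 88 CpG positions) was at 41.6% and 36.6% for ASCs, 10.4% and 3.39% for ESCs and 22.7% and 16.3% for EpiSCs. By the level of the whole tile ASCs were the highest group and ESCs the lowest, without overlap. The difference from ESCs was 32.2 points with a standard error of 4.31 (adjusted p = 8.57e-15 in the limma-moderated model, 0.00165 over CpG-dense tiles alone). The tile of Ttll4, a tubulin glutamylase gene (chr1:74660001-74662000, 88 CpG positions), was at 39.6% and 27.9% for ASCs, 6.01% and 9.86% for ESCs and 18.2% and 18.0% for EpiSCs. By the level of the whole tile, again no group overlapped another.

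In the 500 bp after the start, ASCs and ESCs overlapped in both genes. From the start to 500 bp after it, Pink1 had 59 CpG positions and read 0% and 1.28% for ASCs, 1.29% and 0.309% for ESCs and 0.488% and 0.260% for EpiSCs. The 0 of 105 reads allows up to 2.86%. Between 1500 and 1000 bp before the Pink1 start, 27 CpG positions stood at 88.5% and 82.8% for ASCs and 28.0% and 0% for ESCs. EpiSCs were above ASCs there, at 100% and 93.8%, though below them in the tile level. The bin had 11 to 29 reads a library, and the 0 allows up to 27.3%. The 500 bp after the start held 105 and 156 CpG reads for ASCs, 309 and 324 for ESCs and 205 and 384 for EpiSCs. That stretch lies partly outside the tile. A tile level weights sites by reads, and the part of this in the order of the groups was not tested. The window of Pink1 printed above, with 11 CpG positions, read 2.86% and 10.5% for ASCs, 5.41% and 6.67% for ESCs and 17.5% and 33.3% for EpiSCs. In Ttll4 the difference reached closer to the start. From 500 bp before it to the start, 21 CpG positions stood at 38.3% and 30.2% for ASCs and 6.67% and 10% for ESCs. EpiSCs overlapped ASCs there, at 29.2% and 41.9%, and the bin had 53 to 110 reads a library. In the 500 bp after the start ASCs had 104 and 132 CpG reads and EpiSCs 275 and 250. The part of this in the lower tile level of EpiSCs was not tested. The 300 bases of Ttll4 printed above, with 16 CpG positions, were at 13.9% and 10.3% for ASCs, 1.22% and 1.43% for ESCs and 5.77% and 10.2% for EpiSCs.

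Rgcc differed from them. It encodes a regulator of the cell cycle, and its tile (chr14:79300001-79302000, 114 CpG positions) was at 35.7% and 43.2% for ASCs, 15.6% and 14.6% for ESCs and 9.52% and 8.73% for EpiSCs. ASCs were the highest and EpiSCs the lowest group, without overlap. ASCs exceeded ESCs by 24.3 points with a standard error of 3.82 (adjusted p = 9.48e-16 in the limma-moderated model, 0.000658 over CpG-dense tiles alone). From the start to 500 bp after it 38 CpG positions read 24.8% and 31.2% for ASCs, 15.4% and 13.7% for ESCs and 1.93% and 1.07% for EpiSCs. In the next 500 bp a further 38 positions read 46.1% and 61.1% for ASCs, 17.3% and 19.13% for ESCs and 3.72% and 4.29% for EpiSCs. The methylation of ASCs thus reached into the CpG-dense stretch after the start. Sparser bins were higher. From 1000 to 1500 bp after the start 14 positions read 65.2% and 69.1% for ASCs and 49.2% and 56.5% for EpiSCs. From 1000 to 500 bp before it 6 positions read 80% and 92.3% for ASCs and 93.3% and 83.3% for EpiSCs. In the 300 bases printed above the levels were 4.41% and 4.08% for ASCs, 6.77% and 3.03% for ESCs and 5.0% and 7.14% for EpiSCs, which overlap.

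**Figure D4:**
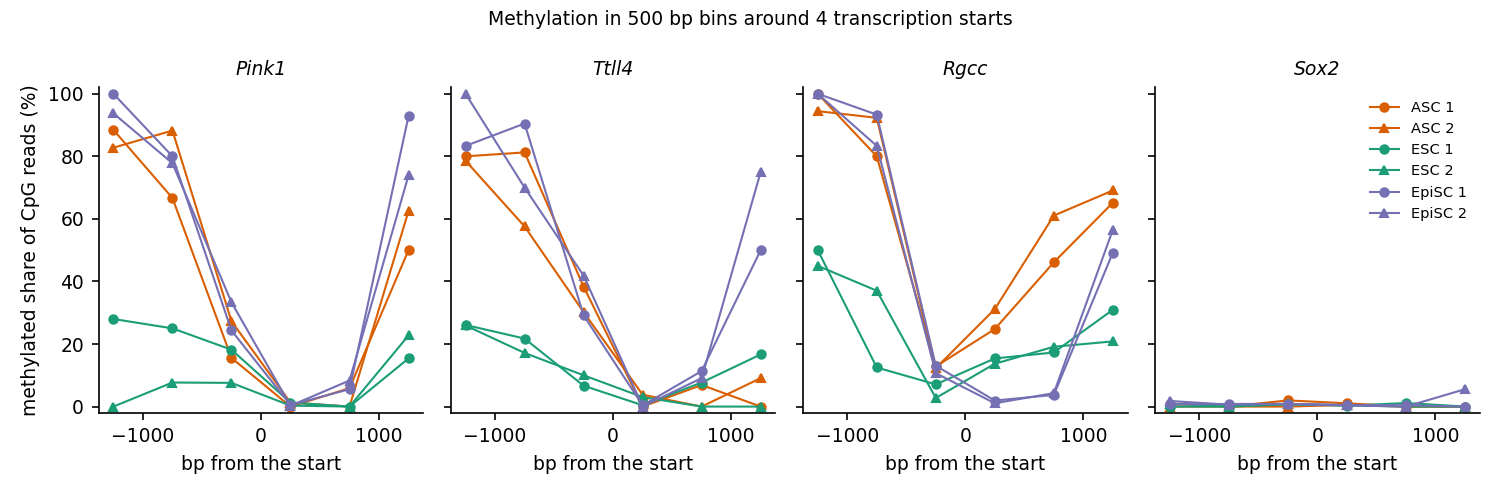
Methylated share of CpG reads in percent (y axis) in 500 bp bins by distance in bp from the transcription start (x axis, negative is upstream) of Pink1, Ttll4, Rgcc and Sox2, with a line for each library. In the 500 bp after the start Rgcc reads 24.8% and 31.2% in ASCs while Pink1 reads 0% and 1.28%, and outer bins of Pink1 and Ttll4 rest on few reads.

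Other tiles of the 20 held the starts of Galnt14, which encodes an enzyme that starts O-linked glycans, Pitpna and Pld2, which act on membrane lipids, Celsr2, an atypical cadherin, and Ece1, which makes active endothelin. The Celsr2 tile (chr3:108414001-108416000, 139 CpG positions, middle in an exon) was at 26.6% and 28.8% for ASCs, 6.45% and 6.72% for ESCs and 38.9% and 40.1% for EpiSCs. It had 698 to 1141 CpG reads a library. Its difference of 21.1 points had the smallest standard error of the 20, 1.10 (adjusted p = 8.77e-19 in the limma-moderated model, 0.000106 over CpG-dense tiles alone). The Pitpna tile, at 32.6% and 18.9% in ASCs and 1.79% and 5.39% in ESCs, had a standard error of 7.08. The Galnt14 tile was at 30.5% and 28.0% for ASCs, 6.73% and 4.62% for ESCs and 19.7% and 22.3% for EpiSCs. The other tiles with a start belonged to Aif1l, Tanc2, Esyt3, D630003M21Rik and Slc29a4, and 7 tiles without one lay nearest to Fam98c, Crtac1, Nr4a2, Pkn2, Rasl10b, N4bp2l1 and Irx5, at distances from 1071 bp (Rasl10b) to 218997 bp (Pkn2).

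**Figure D5:**
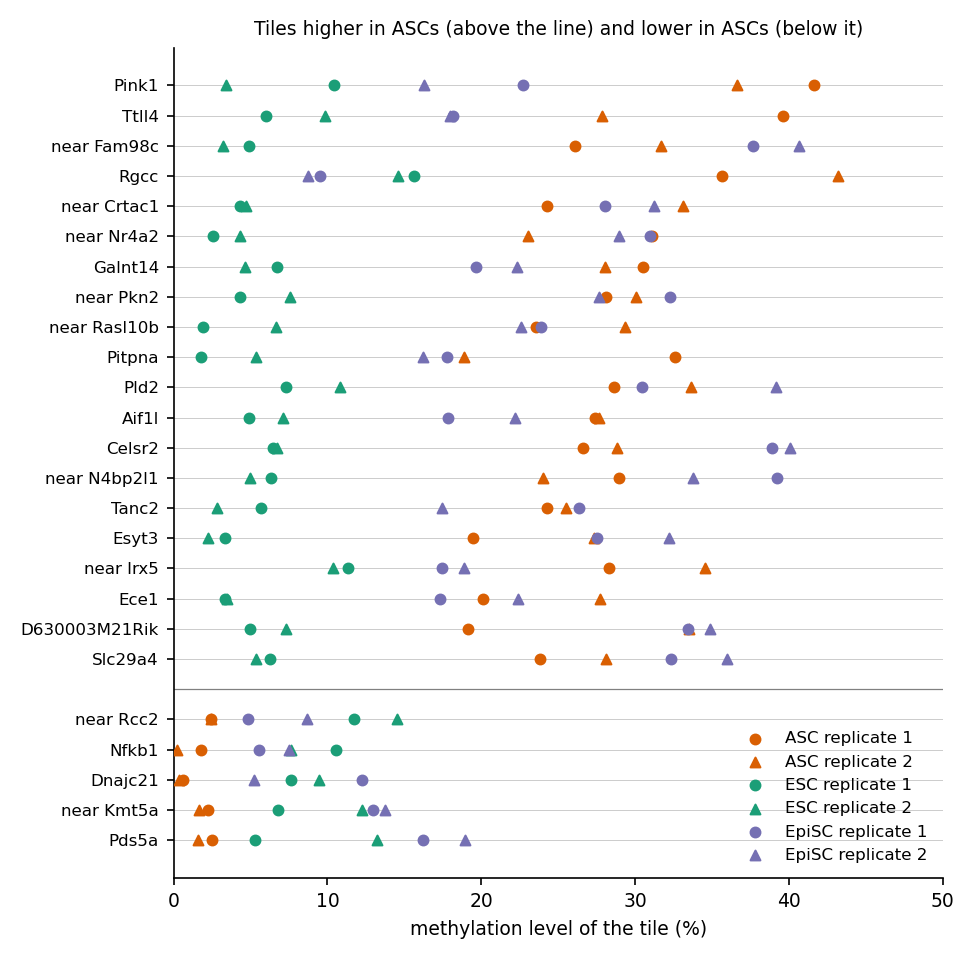
Methylation level in percent (x axis) of the 20 members higher in ASCs by at least 20 points, above the line, and of the 5 members with the largest lower level in ASCs, below it, with a point for each library. Above the line every ASC point is to the right of both ESC points of its tile, and below the line every ASC point is to the left of both.

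Among the 254 tiles lower in ASCs, the 5 with the largest difference lay near Rcc2 and Kmt5a and at the starts of Nfkb1, Dnajc21 and Pds5a. Rcc2 acts in chromosome condensation and mitosis. The tile 2460 bp from its start (chr4:140702001-140704000, 173 CpG positions) was at 2.42% and 2.40% for ASCs, 11.7% and 14.5% for ESCs and 4.86% and 8.65% for EpiSCs. ESCs were the highest group without overlap, and the difference of ASCs from ESCs was -10.7 points with a standard error of 1.39 (adjusted p = 9.09e-10 in the limma-moderated model, 0.00192 over CpG-dense tiles alone). The Nfkb1 tile, at the start of the gene for a precursor of NF-kappa-B, was at 1.79% and 0.216% for ASCs, 10.6% and 7.64% for ESCs and 5.55% and 7.48% for EpiSCs. The tile of Dnajc21, a co-chaperone of ribosome assembly, was at 0.617% and 0.358% for ASCs, 7.62% and 9.43% for ESCs and 12.2% and 5.22% for EpiSCs. For Pds5a, a cohesin regulator, the ESC libraries were at 5.27% and 13.2% and the ASC libraries at 2.47% and 1.61%.

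Methylation in the naive cells was rare among members. A mean ESC level of 10% or more was found in 22 tiles and of 20% or more in 1. That tile (chr1:138840001-138842000, 85 CpG positions) lay in an intron 1456 bp from the start of Lhx9, a LIM-homeobox gene of gonad and brain development. It was at 29.4% and 40.9% for ASCs, 21.3% and 24.8% for ESCs and 2.87% and 2.06% for EpiSCs. EpiSCs, not ESCs, were the lowest group there. The next was the tile of Odf2l, at 17.3% and 18.2% for ASCs, 18.8% and 20% for ESCs and 7.96% and 7.81% for EpiSCs. Its difference between ASCs and ESCs was -1.68 points (adjusted p = 0.515, limma-moderated model). The other members among the 5 with the highest ESC level were Rgcc and tiles near Sos2 and Mpped1. The largest excess of ASCs over EpiSCs was again in the tiles near Lhx9 and at Rgcc, followed by a tile in an intron 23730 bp from the nearest start, that of Gata4. It read 26.8% and 18.6% for ASCs, 5.80% and 8.29% for ESCs and 1.32% and 2.09% for EpiSCs.

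The most CpG-rich members were the tiles of Chd7 with 337 CpG positions, Qk with 286 and Yy1 with 263, and tiles without a start nearest to Unc45b (285) and Gpc5 (270). Chd7 encodes a chromatin remodeller, and its tile was at 2.77% and 0.923% for ASCs, 1.18% and 2.48% for ESCs and 5.50% and 4.55% for EpiSCs. The Yy1 tile, of a zinc finger factor present in most cells, was between 0.199% and 1.36% in all libraries. The tile nearest to Unc45b was the exception, at 3.73% and 11.3% for ASCs, 1.02% and 0% for ESCs and 53.1% and 21.4% for EpiSCs. It had as few as 75 CpG reads in a library, which allows the 0% to be up to 4.0%, and EpiSC replicate 1 alone would have put it outside the rule.

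Most members stood alone. There were 6499 tiles without an adjacent member, 596 pairs, 65 runs of 3 and 6 runs of 4. The longest runs by CpG number beside the first were at Bahcc1, Skor1, Ebf3 and Dmrta2, of which Ebf3 and Dmrta2 encode transcription factors and Skor1 a corepressor. Over its 8000 bp the Bahcc1 run was at 0.918% and 0.648% for ASCs, 0.566% and 0.438% for ESCs and 1.30% and 1.19% for EpiSCs. The Dmrta2 run was at 4.55% and 4.74% for ASCs, 2.14% and 2.08% for ESCs and 4.39% and 3.74% for EpiSCs. The run with the most CpG positions (chr17:39842001-39850000, 609 positions) held no protein-coding start and overlapped an annotated ribosomal RNA gene and the long noncoding RNA Gm26917. It was at 2.09% and 2.76% for ASCs, 0.882% and 1.65% for ESCs and 32.8% and 28.7% for EpiSCs. A pair of its tiles reached 10378 to 30028 CpG reads a library, and every tile of the run had at least 4995 in each library. The median over all members was 375 to 528.5 CpG reads. Whether the reads of the run come from this locus alone was not tested. Without that pair the summed level of all members in EpiSCs was 8.04%.

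Genes of 9 lists were then looked up, 150 genes in all, of which 149 were found in the annotation. The tile of the start was a member for 74, was CpG-dense and at 40% or more in EpiSCs for 9, and held 80 or fewer CpG positions for 65. The remaining gene, Bcor, starts on chromosome X, which was not searched for members. Counts of higher and lower tiles below are at an adjusted p under 0.05 in the limma-moderated model over all tiles, to be read beside the 42.9% of all members that were higher and the 3.21% that were lower. The count over CpG-dense tiles alone follows each, to be read beside the 24.8% of all members that were higher by that fit. It called 0.531% of all members and 0 listed tiles lower.

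Of 16 pluripotency genes, 6 started in members (Sox2, Klf4, Klf2, Prdm14, Tbx3 and Sall4), and 0 of them were called in either direction by either fit. The Sox2 tile was at 0.578% and 0.188% for ASCs, 0.551% and 0.370% for ESCs and 0.533% and 0.904% for EpiSCs. The Klf4 tile was between 0.197% and 0.952% in ASCs and ESCs. Prdm14, a repressor needed for naive pluripotency and germ cells, had 1.61% and 3.12% for ASCs, 0.676% and 0.635% for ESCs and 14.7% and 6.65% for EpiSCs. Of 16 housekeeping genes 10 started in members, and 3 were higher in ASCs, 2 of them over CpG-dense tiles alone. Actb, the gene of beta-actin, had 4.26% and 6.81% for ASCs, 1.51% and 2.03% for ESCs and 22.1% and 18.2% for EpiSCs. Rplp0, a ribosomal protein gene, had 6.62% and 8.61% in ASCs and 3.04% and 2.94% in ESCs.

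Of 16 genes of primed cells and gastrulation, 12 started in members, 4 were higher in ASCs and 0 were higher over CpG-dense tiles alone. The tile of T, the mesoderm factor Brachyury, was at 10.8% and 8.33% for ASCs, 5.0% and 4.34% for ESCs and 11.8% and 14.4% for EpiSCs (adjusted p = 0.0040 in the limma-moderated model, 0.0515 over CpG-dense tiles alone). Foxa2, an endoderm factor, was at 10.2% and 9.47% in ASCs and 3.78% and 6.57% in ESCs. Eomes, which acts in mesoderm, endoderm and trophoblast, was at 0.218% and 0.407% in ASCs and did not pass. Otx2 and Fgf5, which are active in primed cells, were low in EpiSCs, Otx2 at 1.46% and 0.514% and Fgf5 at 0.349% and 0.522%.

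Hox genes set position along the body axis. Of 16 looked up 12 started in members, 8 were higher in ASCs and 4 over CpG-dense tiles alone, Hoxa10, Hoxc4 and Hoxd1 among them. The Hoxd1 tile was at 8.33% and 8.65% for ASCs, 1.56% and 1.996% for ESCs and 10.8% and 10.01% for EpiSCs, a difference of 6.71 points (adjusted p = 2.62e-08 in the limma-moderated model, 0.00259 over CpG-dense tiles alone). The Hoxa5 tile, whose upstream bases are printed above, was at 7.74% and 6.06% for ASCs, 4.58% and 4.57% for ESCs and 11.1% and 9.67% for EpiSCs, and did not pass over CpG-dense tiles alone (adjusted p = 0.0388 in the limma-moderated model over all tiles, 0.137 over CpG-dense tiles alone). Hoxd13 and Hoxc13 were among those not called, with ASC levels of 0.248% and 1.29% and of 0.787% and 0.466%. The median difference over the 12 tiles was 2.45 points, against 1.05 over all members.

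Of 22 other developmental regulators 11 started in members, with 3 higher in ASCs and 1 lower, and 1 higher over CpG-dense tiles alone. That was Sox1, a neural factor, at 6.997% and 5.95% for ASCs, 0.836% and 1.01% for ESCs and 5.14% and 2.29% for EpiSCs. The lower tile was that of Six2, a factor of kidney progenitors, at 3.37% and 1.61% in ASCs and 5.47% and 2.38% in ESCs, where the groups overlapped. Pax2, Pax7 and Lhx2 were at 2.79% or less in all libraries. Isl1 lay outside the set.

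Imprinted and germline genes were mostly elsewhere. Of 16 imprinted genes 2 started in members, 6 in CpG-dense tiles at 40% or more in EpiSCs and 8 in tiles with fewer CpG positions. Each tile is that of 1 chosen transcript start per gene. Whether it covers the region that carries the imprint was not tested, so its level does not tell if an imprint was kept. The Grb10 tile was at 1.10% and 1.11% for ASCs, 0.513% and 0.542% for ESCs and 25.8% and 12.5% for EpiSCs, so the EpiSC replicates differed more than the other groups did. The Inpp5f tile was at 21.3% and 19.8% for ASCs, 12.0% and 13.2% for ESCs and 8.73% and 13.8% for EpiSCs, and was higher in ASCs than in ESCs by 7.95 points. Of 15 germline genes found 0 started in members, 14 started in tiles with 80 or fewer CpG positions and Dazl in a CpG-dense tile methylated in EpiSCs.

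Of the genes that write, read and remove DNA methylation 8 of 16 started in members, beside 74 of the 149 listed genes found. Dnmt3b, a de novo methyltransferase, was at 5.09% and 6.53% for ASCs, 2.08% and 3.20% for ESCs and 11.8% and 9.19% for EpiSCs, and was higher in ASCs by both fits, as was Tet3, an enzyme that oxidises methylcytosine. Dnmt3a was at 1.44% and 1.84% in ASCs and 0.602% and 1.43% in ESCs and was not called. Gadd45a was lower in ASCs, at 0% in both ASC libraries, which allows up to 0.607% and 0.667%, and at 0.841% and 0.683% in ESCs, and did not pass over CpG-dense tiles alone (adjusted p = 0.00593 in the limma-moderated model over all tiles, 0.0504 over CpG-dense tiles alone). Of 16 genes of CpG island binders and their complexes, 13 started in members, with 3 higher, 1 lower and 2 higher over CpG-dense tiles alone. Pcgf1, a subunit of the Polycomb complex that KDM2B brings to islands, was at 6.73% and 7.89% for ASCs, 1.10% and 0.905% for ESCs and 17.8% and 8.24% for EpiSCs. Kdm2b itself was at 1.44% or less in all libraries. The tile lower in ASCs was that of Kmt2a, a histone methyltransferase gene with a CXXC domain, at 0.321% and 0% in ASCs and 3.98% and 0.412% in ESCs, where ESC replicate 1 alone was high and the 0% allows up to 0.673%.

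Short motifs were counted on both strands of the tiles as a description of sequence. The GC box GGGCGG was in 97.5% of members, 84.2% of CpG-dense tiles methylated in EpiSCs and 28.9% of all tiles on chromosomes 1 to 19. Among tiles with 81 to 100 CpG positions it was in 95.5% of members and 81.7% of the others. The ETS motif CCGGAAG was in 30.5% of members, 28.6% of CpG-dense tiles methylated in EpiSCs and 9.75% of all tiles. For the NRF1 motif GCATGCGC the shares were 8.91%, 7.22% and 4.02%, and for the CRE motif TGACGTCA they were 4.61%, 3.49% and 1.79%. The E-box CACGTG was in 33.1%, 37.5% and 27.1%, with the share of members between the other two. By mean copies a tile the ETS motif had the same order, with 0.393, 0.440 and 0.109. All these motifs hold a CpG, none contains another, and the rule chose tiles by CpG number, so the gap from all tiles is partly fixed by the choice.

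The threshold of 40% cut through a thin range. EpiSC means between 30% and 40% were found in 221 members, and between 40% and 60% in 196 of the CpG-dense tiles outside. The nearest inside were the tiles of Mrps2 (39.992%), Cdh6 (39.963%) and Irf2bp1 (39.766%) and a tile near Sptbn4 (39.831%). The nearest outside were those of Npbwr1 (40.016%) and Rnaset2b (40.062%) and tiles near Vwa1 (40.097%) and Tpbg (40.114%). In the Tpbg tile the EpiSC libraries read 49.7% and 30.5%, a spread far wider than the distance to the threshold. By EpiSC replicate 1 alone 7895 tiles, and by replicate 2 alone 7910, were under 40%, and 7860 were under it in both.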

How the data were processed

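DNA from 2 replicates each of ASCs, ESCs and EpiSCs was converted with bisulfite and sequenced after post-bisulfite adaptor tagging, in which adaptors are added after conversion. Per the methods and labels, the authors trimmed reads with Trim Galore, aligned them to GRCm38 with Bismark 0.16.3, removed duplicates and used MethPipe (version not given in the sources used here) to count reads per CpG over both strands. The deposited tables give for each CpG of a library the methylation level as a fraction and the read count, with no normalization and no pooling of replicates. Methylated counts were recovered as the product of both, which lay within 0.000115 of a whole number. Every site on chromosomes 1 to 19 and X fell on a CpG of GRCm38. Reads of 129-type cells were aligned to a reference of another strain, and the effect of this on levels was not tested.

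Counts were summed over tiles of 2000 bp. A tile holds a start where the first base of 1 chosen GENCODE M21 transcript per gene lies in it. ASCs were compared with ESCs by a quasi-binomial logistic model per tile, with dispersion moderated by squeezeVar of limma 3.58.1 in R 4.3.3, a two-sided F test and Benjamini-Hochberg adjustment over 445422 tiles. Standard errors combine the SDs of both groups. The model was tested on simulated data. Alternatives were another set of libraries or tiles in the fit, a trended prior, limma on M values, Fisher's exact test, other read, CpG and EpiSC limits, thinned reads, a shifted grid, a replicate block and leaving out each library. The fit of CpG-dense tiles alone, and the sum without members that reach 10000 reads, were added after the data were seen.

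The members and the gene lists were chosen with earlier results of these data known. Named tiles were the 20 and the 5 with the largest higher and lower differences, those with listed starts, those nearest to the threshold, the 5 longest runs, and the 5 with the highest ESC level, the largest excess of ASCs over EpiSCs and the most CpG positions. Some listed genes are counted but not reported here by name. Labels call the replicates biological. Where they did not come from separate cultures, p-values measure technical spread alone.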

Additional observations from a re-analysis of the deposited data

How the results depend on the processing

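The 20 tiles higher in ASCs by at least 20 points were 20 in every other model and with a minimum of 100 reads, 23 with thinned reads, and 20 to 41 when a library was left out, with 41 without ASC replicate 1. Tiles higher at an adjusted p alone ranged from 2702 to 3007 when a library was left out, and were 1963 with CpG-dense tiles alone. Tiles lower at an adjusted p alone were 137 to 281 when a library was left out, 137 without ASC replicate 2 and 145 without ASC replicate 1, and 42 with CpG-dense tiles alone. The cause was not tested beyond the greater dispersion of CpG-dense tiles given above. Limma on M values gave 4032 higher and 293 lower, and Fisher's exact test 3756 and 323.

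Over 100 CpG positions the set held 4718 tiles, with summed levels of 2.55% for ASCs, 1.34% for ESCs and 7.04% for EpiSCs, and over 60 positions it held 12027. As a mean over tiles the level was 3.77% in ASCs and 1.58% in ESCs. The read minimum, the EpiSC limit, the shifted grid and the choice of EpiSC library moved the number of tiles by less than 1.5 times (7194 to 8024). Of the named tiles, only those with the largest higher and lower differences between ASCs and ESCs were followed under the alternatives. Among their 300 values, 284 kept their direction and call. The other 16 kept the direction but fell below the required difference, in each case when a library was left out. Most of the tiles with the largest higher differences had such a value. The lowest were 13.0 points for D630003M21Rik without ASC replicate 2 and 15.3 points for Pitpna without ASC replicate 1. The other models and the minimum of 100 reads use the same difference of library means, so only the adjusted p could change there. The stability of the remaining named tiles was not tested.

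With the replicate number as a block, the counts were 20, 0, 3398 and 257. Deviations of same-numbered libraries correlated across members with r from -0.0202 to 0.0118, so no pairing was seen. Counting error in tiles near 0% can hide a shared deviation, and a shift common to all tiles would not show. Pairing is therefore not excluded.

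Depth limits levels near 0%. At 500 reads in a tile a count of 0 allows up to 0.6%, if CpG reads are taken as independent.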

Other observations

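CpG-dense tiles of the X chromosome lie outside the set, which was limited to chromosomes 1 to 19. There were 217 with enough reads. Their median level was 1.62% and 1.79% for ASCs, 0.837% and 1.03% for ESCs and 45.6% and 43.0% for EpiSCs. In the EpiSC libraries 171 and 170 of them (78.8% and 78.3%) lay between 20% and 60%, against 11.1% and 10.4% of the 8741 CpG-dense tiles of the other chromosomes. In the ASC libraries 11 and 7 of the X tiles lay in that range, and in the ESC libraries 9 and 8. By the limit of 40% in a single EpiSC library 74 and 83 of the 217 would have been low.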
